A study of Mus musculus with 12 samples.

Results

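The comparison described here is that of MIN6 cells after 72 hr of miR-184 induction (72 hr) with untransfected MIN6 cells (CTR), both of which received doxycycline. It sets 4 of the 12 arrays of the series against each other, the 2 replicates of each group, and was read across 12001 features that were detected on the arrays. The spread behind each SE and p-value was estimated from all 12 arrays. MIN6 cells derive from a mouse insulinoma and keep traits of the pancreatic β cell. The 72 hr cells carried the rtTA plasmid, whose product binds its operator only in the presence of doxycycline, and the tetO-184 plasmid, from which miR-184 is then transcribed, and were kept in 1 µg/ml doxycycline for 72 hr. The CTR cells were exposed to lipofectamine without a vector and to 1 µg/ml doxycycline, for a time that the labels do not give. A transfected control (TC) carried both plasmids and received no doxycycline, and cells induced for 16, 24 and 48 hr completed the series. The 72 hr and CTR cells therefore differed in plasmids, in miR-184 and possibly in length of doxycycline exposure and time in culture. These cannot be told apart in this comparison alone. Transfection was transient, so that an array averages over cells with and without plasmids. The labels do not say that the replicates were separate cultures, and the p-values then measure the spread between the arrays of the series only.

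miR-184 is a microRNA enriched in pancreatic islets. Loaded into an Argonaute protein, it pairs through its seed (bases 2 to 8) with mRNAs and lowers their level or translation. Insulin-producing cells make large amounts of secreted protein and rely on the endoplasmic reticulum (ER), whose chaperones, disulfide enzymes and translocon are induced through ATF6, IRE1 and XBP1 when unfolded proteins accumulate. A separate branch, the integrated stress response, acts through phosphorylation of eIF2α and translation of ATF4, which switches on genes for amino acid uptake and synthesis, tRNA charging and regulators such as Ddit3 and Trib3. The mature sequence is shown because it is the agent induced, with the seed in capitals (RefSeq, GRCm38.p6, chr9:89802263-89802284, minus strand).

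mmu-miR-184-3p: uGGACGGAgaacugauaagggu

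No probe of the arrays was named for the miR-184 gene, so that its induction was not measured here. The groups were hybridized once on each of 2 slides and always at the same place, so that an effect of place and one of group cannot be told apart. Between 15243 and 16737 of 45281 probes were detected per array. Of the fixed markers of β cells, 9 of 11 were measured. Markers of fibroblasts, endothelium and immune cells were all below the detection filter or without a named probe (0 of 15 measured), as were all but 1 of 11 of acinar and duct cells.

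At 72 hr, 2449 of 12001 features (20.4%) differed from CTR at an adjusted p under 0.05 (limma with the slide as a block, Benjamini-Hochberg adjustment over all features). Of these, 1299 were higher (10.8%) and 1150 were lower (9.58%), and 2033 were named genes. The largest rises included genes listed as regulators of the ATF4 response (Atf3, Nupr1, Trib3 and Klhl24). They also included genes of amino acid uptake and synthesis (Slc6a9, Slc7a11, Cth and Gpt2). Genes of the ER folding and export machinery were lower. The change was 2-fold or more for 547 called features and 4-fold or more for 57, of which 36 were higher and 21 were lower. Every called feature moved in the same direction on both slides, against 8446 (70.4%) of all features, a condition that a call nearly requires. The change was larger on slide 2 for 1821 of the called features, and the median absolute change was 0.60 on slide 1 and 0.88 on slide 2. The number of calls depended on single arrays: it was 297 without CTR replicate 2, 771 without the 72 hr replicate 2, 1065 without CTR replicate 1 and 2992 without the 72 hr replicate 1, and 853 without the slide in the fit.

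**Figure D1:**
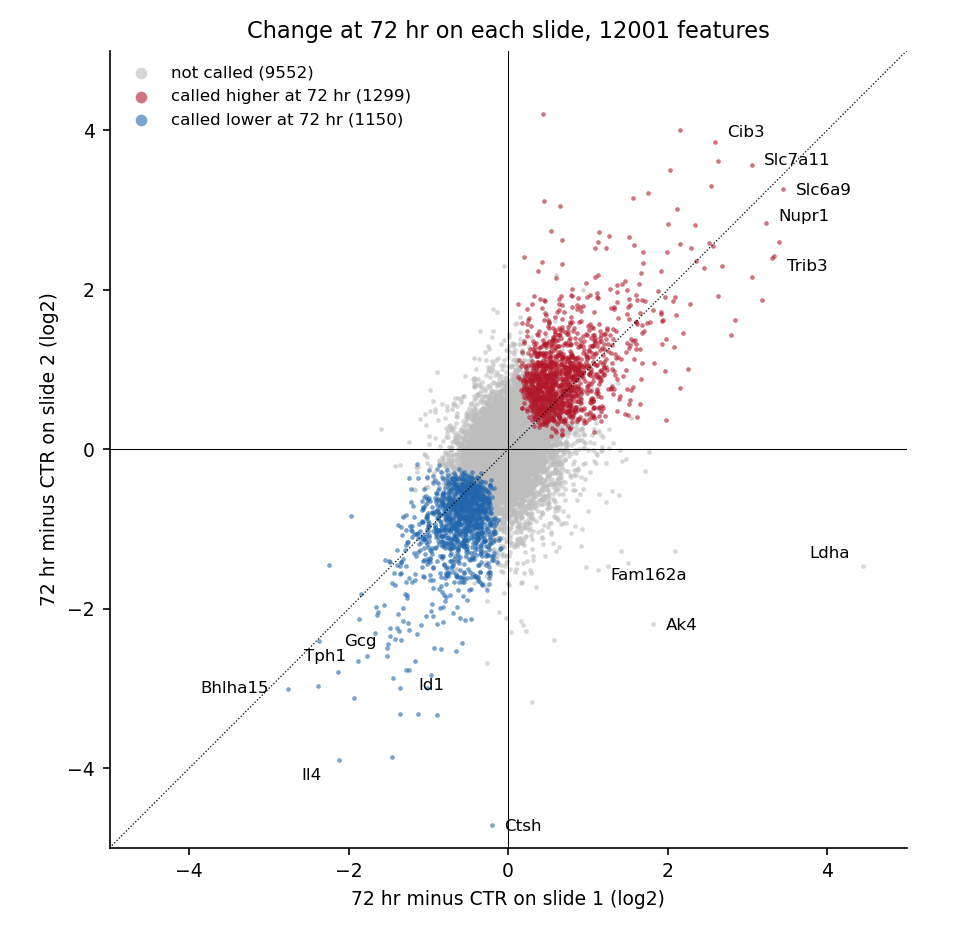
Change of each of 12001 features at 72 hr, as log2 normalized signal of the 72 hr array minus that of the CTR array, on slide 1 (horizontal) and on slide 2 (vertical), with equal values on the dotted line. Features called higher (1299) lie in the upper right and those called lower (1150) in the lower left, whereas Ldha, Ak4 and Fam162a were higher on slide 1 and lower on slide 2.

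Levels below are log2 normalized signals, given for slide 1 and then slide 2, and changes are log2 differences, 72 hr minus CTR, ± SE of the fit. Counts of list members are to be read beside the 10.8% of all features called higher and the 9.58% called lower. Slc6a9, a glycine transporter, had the highest rise among the named genes. Its levels were 9.82 and 11.09 at 72 hr, against 6.36 and 7.82 in CTR, a change of 3.36 ± 0.49 (adjusted p = 0.00162). Slc7a11, the cystine/glutamate exchanger, had levels of 8.77 and 9.84 at 72 hr, against 5.72 and 6.28 in CTR (3.31 ± 0.65, adjusted p = 0.00543). A further probe of Slc7a11 changed by 1.94, and the probe used was above background on 1 of the 2 CTR arrays. In both genes, each 72 hr array was above each CTR array by more than the replicates of either group differed. Cib3, of a family of calcium and integrin binding proteins, was not above background in CTR and was at least 6.81-fold higher at 72 hr, where its levels were 8.18 and 8.98. Its adjusted p was 0.000325.

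The other genes among the 15 largest rises were Atf3, Nupr1, Ciart, N4bp2l1, Trib3, Klhl24, Cth, Sphk1, Fam13c, Cables1, Jun and Gpt2. For all 15, both 72 hr arrays were above both CTR arrays. Sphk1, the kinase that makes sphingosine 1-phosphate, had levels of 8.87 and 8.79 at 72 hr, against 5.82 and 6.63 in CTR (2.61 ± 0.24, adjusted p = 0.00032). N4bp2l1 changed by 2.93 ± 0.37 (adjusted p = 0.00116), although its other probe changed by 1.02. Cables1, a cyclin-dependent kinase binding protein, and Fam13c were not above background in CTR and were at least 4.03-fold and 4.61-fold higher at 72 hr.

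The 15 largest falls were those of Il4, Bhlha15, Tmem45b, Adam32, Meltf, Cthrc1, Ctsh, Rasl11a, Gpbar1, Tph1, H2-M10.1, Mt3, Derl3, Angpt2 and Slc17a9. The probe of Il4, a cytokine known from T cells, had levels of 8.65 and 6.88 at 72 hr, against 10.77 on both CTR arrays (−3.01 ± 0.41, adjusted p = 0.00135). Bhlha15 (Mist1), a transcription factor of professional secretory cells, had levels of 7.63 and 7.30 at 72 hr, against 10.39 and 10.31 in CTR (−2.89 ± 0.52, adjusted p = 0.00385). Its other probes changed by −3.0 and −2.98. Rasl11a, a Ras-like GTPase, had levels of 7.15 and 7.58 at 72 hr, against 9.52 and 9.98 in CTR (−2.39 ± 0.22, adjusted p = 0.00032). The falls of Bhlha15 and Rasl11a were of like size on both slides, and that of Il4 was −2.12 on slide 1 and −3.89 on slide 2. The Il4 probe was bright in these cells, and whether it also binds another transcript was not tested, so that its value is that of the probe.

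Tmem45b was not above background at 72 hr and was at least 4.77-fold lower there than in CTR (adjusted p = 0.00116). Slc17a9, the vesicular nucleotide transporter, was lower by −2.05 ± 0.32 (adjusted p = 0.00205), and its other probe changed by −2.54. Gpbar1, a bile acid receptor, had levels of 5.70 and 5.40 at 72 hr, against 7.06 and 8.71 in CTR (−2.34 ± 0.38, adjusted p = 0.0026). It was above background on 1 of the 2 arrays at 72 hr, as were Meltf and Cthrc1, so that these differences rest in part on values at background. Ctsh, which encodes cathepsin H, was carried by slide 2: its levels were 9.9987 and 8.02 at 72 hr, against 10.20 and 12.72 in CTR, and its change was −0.20 on slide 1 and −4.71 on slide 2 (adjusted p = 0.0376). Against TC it changed by −1.40 and did not pass the test (adjusted p = 0.208). For each of the 15 genes both 72 hr arrays were below both CTR arrays.

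**Figure D2:**
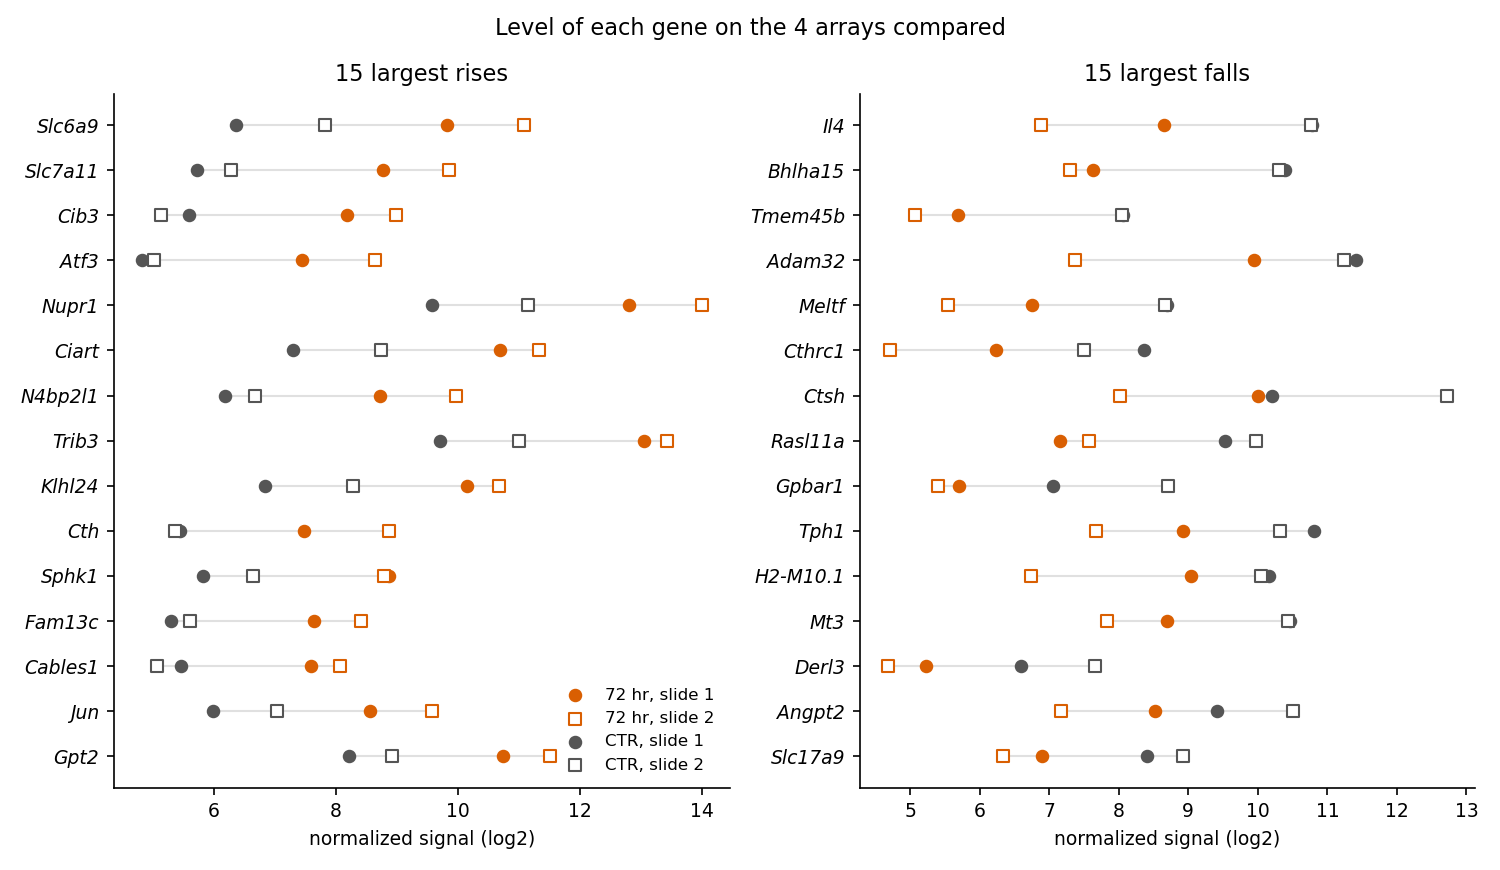
Log2 normalized signal (horizontal) of the genes with the 15 largest rises (left) and the 15 largest falls (right) on the 2 arrays at 72 hr (orange) and the 2 CTR arrays (grey), with slide 1 as circles and slide 2 as squares. The groups did not overlap for any of these genes, and in Ctsh the slide 1 arrays were nearly equal.

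Among 22 measured genes listed as regulators of the ATF4 response, 15 rose and 2 fell, with a median change of 1.53, against 0.00 over all features. The list is broad and also holds genes of an enzyme (Chac1) and of a hormone (Fgf21). Atf3, a transcription factor induced by ATF4, was not above background in CTR and was at least 4.66-fold higher at 72 hr, with levels of 7.44 and 8.63 (adjusted p = 0.00624). Nupr1, a stress-induced chromatin protein, had levels of 12.80 and 13.99 at 72 hr, against 9.57 and 11.15 in CTR (3.04 ± 0.46, adjusted p = 0.0019). Trib3, a pseudokinase that binds AKT and ATF4, had levels of 13.05 and 13.43 at 72 hr, against 9.71 and 11.01 in CTR (2.88 ± 0.39, adjusted p = 0.00136). Each of these genes was higher at 72 hr on both slides, and the CTR arrays of Nupr1 and Trib3 differed from each other, with the higher value on slide 2.

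Klhl24, which encodes an adaptor of a ubiquitin ligase, had levels of 10.14 and 10.68 at 72 hr, against 6.84 and 8.28 in CTR (2.85 ± 0.24, adjusted p = 0.00032), and its other probe changed by 0.68. Ddit3 (CHOP), the transcription factor that mediates death under prolonged stress, had levels of 12.41 and 12.62 at 72 hr, against 9.77 and 10.71 in CTR (2.28 ± 0.39, adjusted p = 0.00299). Chac1, which degrades glutathione, had levels of 14.03 and 13.87 at 72 hr, against 11.24 and 12.43 in CTR (2.11 ± 0.38, adjusted p = 0.00391). Ppp1r15a (GADD34), the phosphatase subunit that reverses eIF2α phosphorylation, was higher by 1.78 ± 0.37 (adjusted p = 0.00723). Sesn2, Vldlr, Ddit4, Cebpb and the secreted hormone Fgf21 rose by 1.77, 1.59, 1.47, 1.97 and 1.68, with Fgf21 above background on 1 of the 2 CTR arrays.

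Atf4 itself had levels of 12.70 and 12.62 at 72 hr, against 12.18 and 12.63 in CTR, and did not pass the test (0.26 ± 0.14, adjusted p = 0.216), while its other probe changed by 0.79. Its protein is controlled largely in translation, which arrays do not measure. The 2 members that fell belong to the ER branches. Xbp1 had levels of 12.67 and 12.77 at 72 hr, against 13.29 and 13.21 in CTR (−0.52 ± 0.17, adjusted p = 0.0448). Creb3l2, a membrane-bound transcription factor of secretory capacity, had levels of 7.68 and 7.44 at 72 hr, against 9.33 and 9.42 in CTR (−1.82 ± 0.34, adjusted p = 0.00479).

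Of 10 measured amino acid transporters, 6 rose and 0 fell (median 1.42). Besides Slc6a9 and Slc7a11, they included Slc1a4, a neutral amino acid carrier, with levels of 10.21 and 10.57 at 72 hr, against 8.01 and 9.12 in CTR (1.82 ± 0.35, adjusted p = 0.00514). Slc38a2, a glutamine and alanine carrier, had levels of 11.93 and 12.40 at 72 hr, against 10.32 and 10.83 in CTR (1.59 ± 0.22, adjusted p = 0.00142). Slc38a7, a lysosomal glutamine carrier, rose by 1.24 and Slc7a3, a carrier of cationic amino acids, by 2.49. Slc3a2, the heavy chain that pairs with Slc7a11, changed by 1.11 ± 0.41 and did not pass the test (adjusted p = 0.076).

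Among 13 enzymes of serine, one-carbon and asparagine metabolism, 7 rose and 1 fell (median 0.92). Cth, the cystathionine γ-lyase that makes cysteine, was not above background in CTR and was at least 5.09-fold higher at 72 hr (adjusted p = 0.0129). Gpt2, the mitochondrial alanine aminotransferase, had levels of 10.74 and 11.51 at 72 hr, against 8.22 and 8.92 in CTR (2.56 ± 0.39, adjusted p = 0.00205). Shmt2 and Mthfd2, which carry one-carbon units in mitochondria, rose by 1.68 ± 0.39 (adjusted p = 0.0111) and 1.01 ± 0.22 (adjusted p = 0.00971). Phgdh and Psat1 of serine synthesis rose by 1.25 and 0.92. Asns, the asparagine synthetase, changed by 0.59 ± 0.22 (adjusted p = 0.0698), with levels of 13.62 and 13.76 at 72 hr, against 12.98 and 13.21 in CTR.

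Of 19 aminoacyl-tRNA synthetases, 7 rose and 1 fell, with a median of 0.31. Cars, Sars and Mars1, which load cysteine, serine and methionine, rose by 1.27 ± 0.29, 1.00 ± 0.21 and 0.80 ± 0.15, while other probes of Cars changed by 0.23 and 0.70. Kars, which loads lysine, fell by 0.70 (adjusted p = 0.00469). Eif4ebp1, a repressor of cap-dependent translation that ATF4 induces, had levels of 12.73 and 13.21 at 72 hr, against 9.88 and 11.59 in CTR (2.24 ± 0.45, adjusted p = 0.00575). These counts were smaller without CTR replicate 2, when 9 regulators, 2 transporters, 1 enzyme and 1 synthetase were called higher, and the list medians were then 1.65, 1.58, 0.75 and 0.43.

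The core ATF4 response element (CARE) joins the recognition sites of ATF4 and of a C/EBP partner. Promoters of RefSeq genes (GRCm38.p6, 250 bases before to 50 after the start) were searched for TGATGNAAN on both strands. It was present in 14 of 50 promoters of the 4 lists (28.0%) and in 10 of the 28 whose gene rose (35.7%), against 4.5% of 27025 genes with a promoter and 2.59% of the 7753 tested ones. Over all genes called higher it was present in 44 of 882 promoters (4.99%). The 4 lists hold genes known for this response, so that their share is no test of it. Windows of 5 genes that rose are shown on the strand of the gene, with the match in capitals, as examples from the lists of regulators and transporters.

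Atf3 (chr1:191183425-191183454, minus strand): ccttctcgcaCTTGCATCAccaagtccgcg
Trib3 (chr2:152344028-152344057, minus strand): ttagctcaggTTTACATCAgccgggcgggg
Nupr1 (chr7:126625562-126625591, minus strand): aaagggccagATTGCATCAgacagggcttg
Slc7a11 (chr3:50443660-50443689, minus strand): ctcatgtggcTGATGCAAAcctggagaatt
Slc1a4 (chr11:20332699-20332728, minus strand): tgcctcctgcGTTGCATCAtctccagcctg

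The matches of Atf3, Trib3, Nupr1 and Slc1a4 lie on the opposite strand, so that the capitals show the reverse complement, and that of Slc7a11 lies on the gene strand. Counted from the gene start, the first capital is at −111 in Atf3 and Nupr1, −66 in Slc7a11, −5 in Slc1a4 and 14 in Trib3. A further match in Slc7a11 is at −48. A match is a description of the letters and not evidence of binding.

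Of 20 measured ER chaperones and disulfide enzymes 18 fell and 0 rose, with a median of −0.89. Sdf2l1, an ER chaperone component, had levels of 10.11 and 9.36 at 72 hr, against 11.36 and 11.62 in CTR (−1.75 ± 0.23, adjusted p = 0.00122). Pdia6, a protein disulfide isomerase, had levels of 9.05 and 8.28 at 72 hr, against 10.37 and 10.44 in CTR (−1.74 ± 0.25, adjusted p = 0.00155), and its other probe changed by −1.82. Calr, the lectin chaperone calreticulin, had levels of 10.88 and 10.93 at 72 hr, against 11.89 and 12.15 in CTR (−1.12 ± 0.15, adjusted p = 0.00135). Each of the 3 genes was lower on both slides by more than its replicates differed.

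Pdia4, a further disulfide isomerase, fell by 1.20 (adjusted p = 0.0103). Txndc11, a thioredoxin-domain protein of the ER, fell by 1.46 (adjusted p = 0.00142). Hyou1, an ER Hsp70 exchange factor, had levels of 6.73 and 6.68 at 72 hr, against 8.15 and 8.38 in CTR (−1.56 ± 0.28, adjusted p = 0.00366). Creld2, an ER-stress-inducible disulfide isomerase, had levels of 11.32 and 10.99 at 72 hr, against 12.67 and 12.53 in CTR (−1.45 ± 0.24, adjusted p = 0.00259). Hspa5 (BiP), the master chaperone of the ER, had levels of 5.85 and 5.87 at 72 hr, against 6.50 and 7.02 in CTR (−0.90 ± 0.22, adjusted p = 0.0152). Its probe was dim and above background on 1 of the 2 arrays at 72 hr, and Hsp90b1 (GRP94) was bright and fell by 0.53 (adjusted p = 0.0102).

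Of 13 genes of ER-associated degradation 8 fell and 1 rose (median −0.61). Derl3, a derlin of the retrotranslocation channel, was not above background at 72 hr and was at least 2.51-fold lower there (adjusted p = 0.00987), with levels of 6.59 and 7.67 in CTR. Wfs1, an ER protein mutated in Wolfram syndrome, had levels of 9.13 and 8.99 at 72 hr, against 10.47 and 10.41 in CTR (−1.38 ± 0.20, adjusted p = 0.00174). Edem2, a mannosidase-like protein, and Selenos fell by 1.29 and 0.94. Herpud1, a ubiquitin-like ER membrane protein, was the exception that rose, with levels of 13.61 and 14.04 at 72 hr, against 12.38 and 13.02 in CTR (1.13 ± 0.12, adjusted p = 0.000825).

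Among 30 members of the translocon and its glycosylation enzymes, 19 fell and 0 rose (median −0.62). Sec61a1, the pore of the translocon, had levels of 10.45 and 10.002 at 72 hr, against 11.40 and 11.49 in CTR (−1.22 ± 0.17, adjusted p = 0.00135). Ddost and Ostc of the oligosaccharyltransferase fell by 1.15 (adjusted p = 0.002) and 0.98 (adjusted p = 0.00193), and Ssr2 of the translocon-associated complex by 0.94 (adjusted p = 0.00269). Of 28 members of the COPI and COPII coats and their cargo receptors, 17 fell and 0 rose (median −0.67). Sec24d, a cargo adaptor of COPII, had levels of 7.03 and 6.43 at 72 hr, against 8.17 and 8.75 in CTR (−1.73 ± 0.32, adjusted p = 0.00446). Kdelr2, a receptor that returns ER proteins, and Sec31a, of the outer COPII coat, fell by 1.23 and 0.98, and Sec16a, which organizes ER exit sites, by 0.67, although another probe of Sec31a changed by −0.12. Copg1, of the COPI coat, had levels of 10.39 and 8.43 at 72 hr, against 11.36 and 11.26 in CTR (−1.90 ± 0.39, adjusted p = 0.00672), and its other probes changed by −1.85 to −0.19.

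In a list of sugar nucleotide and N-glycan precursor enzymes, added after values had been seen, 10 of 30 fell and 2 rose (median −0.33). Gmppb, which makes GDP-mannose, had levels of 6.54 and 6.02 at 72 hr, against 8.40 and 8.15 in CTR (−2.0 ± 0.24, adjusted p = 0.0011). Its partner Gmppa fell by 1.13 (adjusted p = 0.00251), and Mogs and Uap1 fell by 1.21 and 0.80. Without CTR replicate 2, 5 chaperones, 1 degradation gene, 3 translocon genes, 0 coat genes and 3 glycan precursor genes were called lower, with medians of −0.79, −0.61, −0.58, −0.64 and −0.23.

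The ER stress response element (ERSE) is the site that ATF6 and XBP1 bind with the factor NF-Y. It was searched as CCAAT followed after 9 bases by CCACG, on both strands, in the same promoter windows. It was present in 37 of 27025 genes with a promoter (0.137%) and in 11 of 7753 tested ones (0.142%), of which 10 were called lower and 1, Pan2, higher. Over all features 9.58% were called lower. Of these 10 genes, 9 are members of the chaperone and degradation lists. Those lists hold genes known for the ER stress response, so that the count is no test of the element. As with the CARE, a match is not evidence of binding. Of the 18 chaperones and disulfide enzymes with a promoter, 7 had a match (38.9%), and 2 of 12 genes of ER-associated degradation did (16.7%), whereas no match was found in 23 translocon and 24 coat genes. The windows of 4 genes that fell are shown as examples of both orientations of the element, and Sdf2l1, Hyou1 and Txndc11 are not among the genes with a match.

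Hspa5 (chr2:34772020-34772049, plus strand): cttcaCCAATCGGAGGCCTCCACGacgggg
Pdia6 (chr12:17266486-17266515, plus strand): agagaCCAATGAAAGGCGGCCACGgcgtgg
Calr (chr8:84847069-84847098, minus strand): caacgCGTGGTCGACCCTCATTGGcccata
Derl3 (chr10:75893237-75893266, plus strand): tctacCGTGGGACTTCCCCATTGGctagcc

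Capitals mark the match with its spacer, which lies on the gene strand in Hspa5 and Pdia6 and on the opposite strand in Calr and Derl3. Counted from the gene start, the first capital is at −65, −98, −162 and −156 in the order shown. Fitted changes of these genes at 72 hr were −0.90, −1.74, −1.12 and −2.18, the last against a background level at 72 hr.

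**Figure D3:**
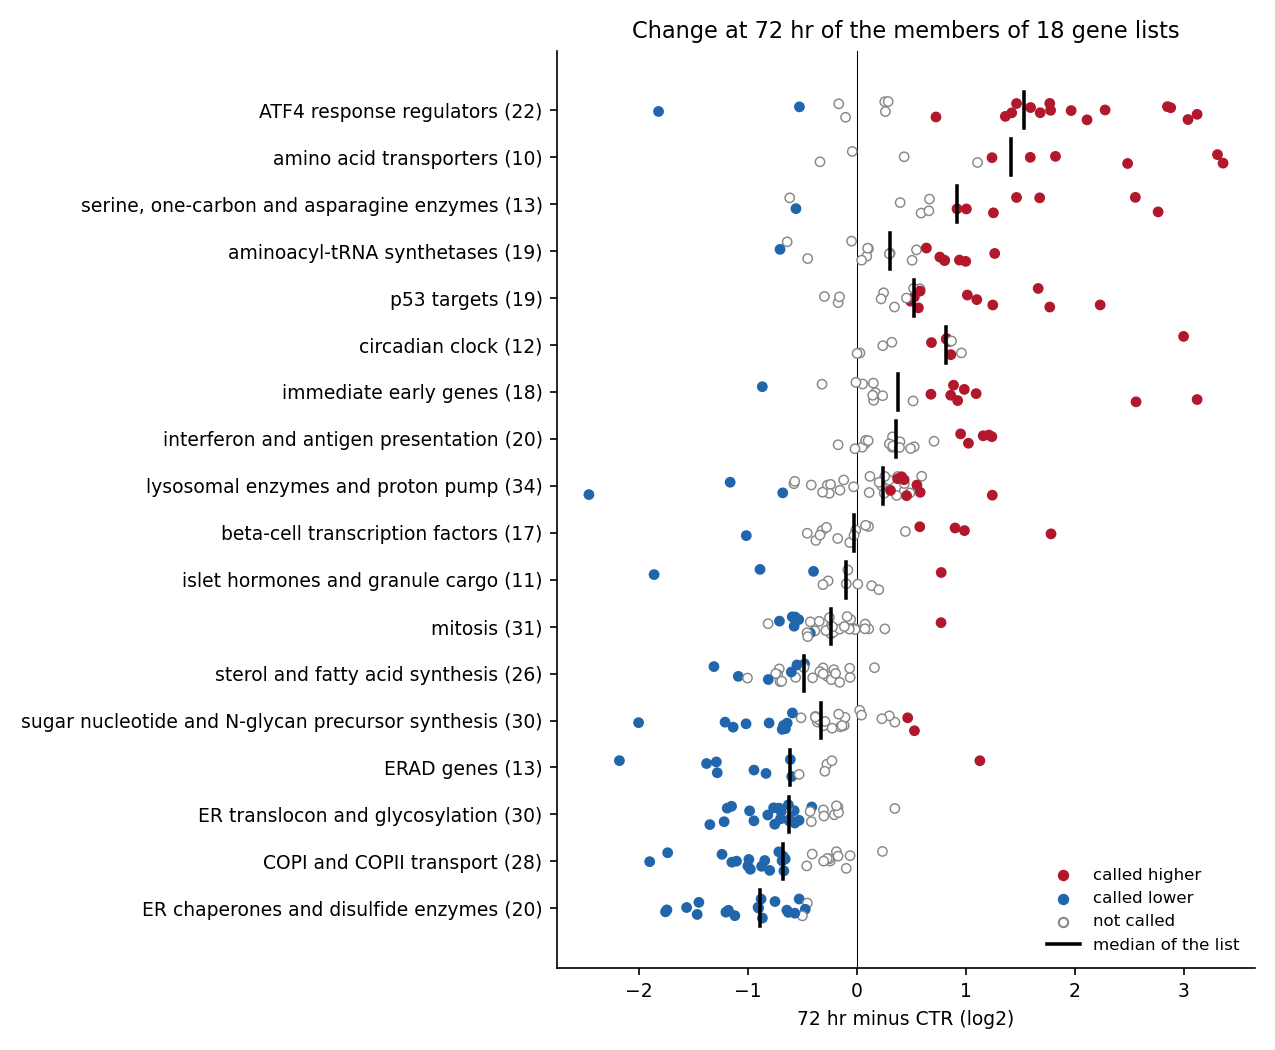
Change at 72 hr against CTR (horizontal, log2) of each measured member of 18 gene lists, with the number measured in brackets. Filled points passed the test and open points did not, and bars mark the median, which was 1.53 for the ATF4 regulators and −0.89 for ER chaperones.

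The same lists were followed through the other groups, which share the CTR arrays. The median of the ATF4 regulators against CTR was −0.11 in TC, −0.13 at 16 hr, −0.08 at 24 hr, 0.86 at 48 hr and 1.53 at 72 hr. That of the ER chaperones was −0.02, −0.07, −0.13, −0.76 and −0.89 in the same groups. Both medians, with the 2 arrays of a group averaged, were thus near 0 until 24 hr and away from it at 48 and 72 hr. The medians at 48 hr were not split by slide, so that they do not show whether each slide held a graded course. Against CTR, 3 features were called at 16 hr (0.025%), 3 at 24 hr (0.025%) and 196 at 48 hr (1.63%). Between 72 and 48 hr no feature was called by limma (0 of 12001, 0%), with 1113 at an unadjusted p under 0.05. Klhl24 had already changed by 2.46 at 48 hr (adjusted p = 0.0011) and Sphk1 by 2.11 (adjusted p = 0.00324), whereas Slc7a11 (1.60, adjusted p = 0.196) and Nupr1 (1.37, adjusted p = 0.125) had not passed the test. The 48 hr arrays differed from each other in Slc7a11 (5.70 on slide 1 and 9.51 on slide 2) and in Nupr1 (10.04 and 13.43). On slide 1 both genes were nearer to CTR (5.72 and 9.57) than to 72 hr (8.77 and 12.80). Klhl24 (9.41 and 10.63) and Sphk1 (7.90 and 8.76) were above CTR on both slides at 48 hr.

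**Figure D4:**
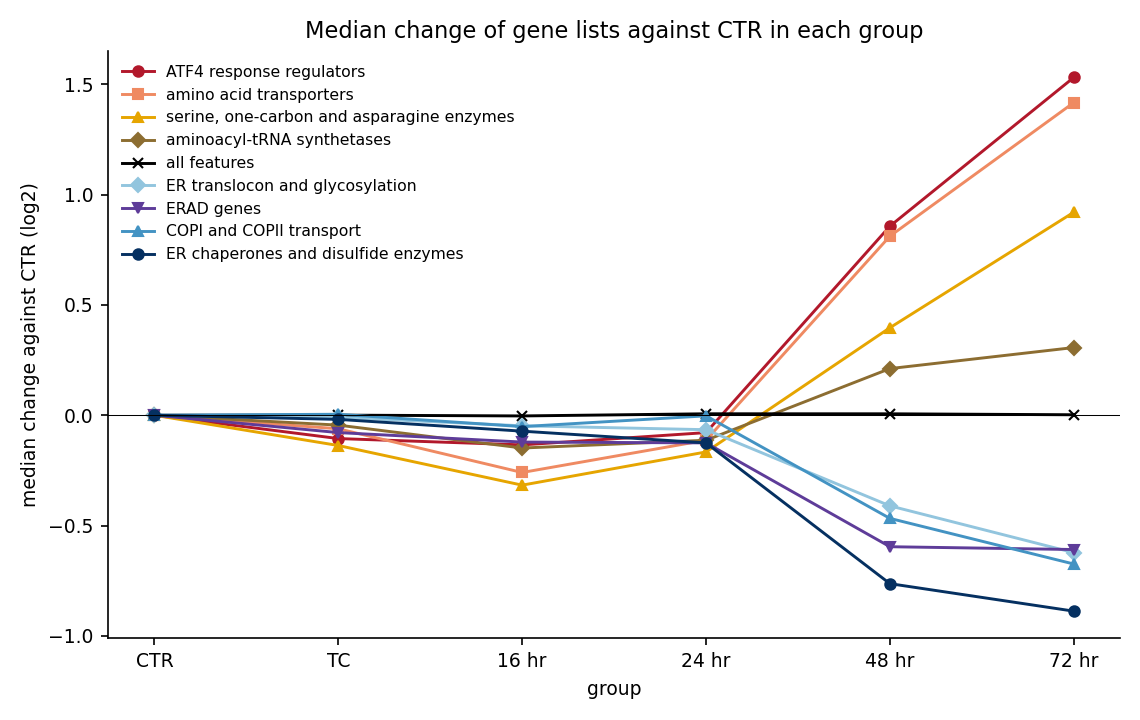
Median change against CTR (vertical, log2) of 4 lists of the ATF4 response, 4 lists of the secretory pathway and all features in CTR, TC and after 16, 24, 48 and 72 hr of induction. The medians stay near 0 up to 24 hr, and those of the ATF4 regulators and ER chaperones reach 1.53 and −0.89 at 72 hr. The arrays of a group are averaged, and those at 48 hr differed from each other in genes such as Slc7a11.

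The transfected control carried the plasmids and lacked the doxycycline that CTR received. The difference between TC and CTR therefore joins plasmids and doxycycline, which cannot be told apart in it. TC differed from CTR in 1 of 12001 features (0.00833%), with 306 at an unadjusted p under 0.05. That gene was Cxcl10, an interferon-induced chemokine. Its levels were 7.10 and 6.39 in TC, 5.0 and 5.28 at 72 hr, and 4.58 and 4.65 in CTR, and it was not above background in either of the last 2 groups. In TC it was at least 1.90-fold higher than in CTR (adjusted p = 0.0455). Set against TC in place of CTR, 2305 features were called at 72 hr (19.2%). Over the lists the medians were 1.54 for ATF4 regulators and −0.89 for ER chaperones against TC, both near those against CTR. Jun, a subunit of AP-1, had levels of 8.55 and 9.57 at 72 hr and 5.97 and 7.02 in CTR (2.56 ± 0.31, adjusted p = 0.0011), with 7.48 and 7.36 in TC. Junb, another AP-1 subunit, rose by 0.89 against CTR (adjusted p = 0.0156) and changed by −0.20 against TC. In Tph1, which encodes the tryptophan hydroxylase of serotonin synthesis, the difference between TC and CTR was −0.99 (adjusted p = 1), and that between 72 hr and TC was −1.28 (adjusted p = 0.021).

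Of 11 measured hormones and cargo peptides 1 rose and 3 fell, with a median of −0.10, where over all features 10.8% were called higher and 9.58% lower. Gcg, the glucagon precursor, had levels of 12.85 and 11.79 at 72 hr, against 14.33 and 14.03 in CTR (−1.86 ± 0.23, adjusted p = 0.00112). Tph1 had levels of 8.93 and 7.67 at 72 hr, against 10.81 and 10.32 in CTR (−2.27 ± 0.34, adjusted p = 0.00181). Cck, cholecystokinin, and Npy, neuropeptide Y, fell by 0.89 (adjusted p = 0.0167) and 0.40 (adjusted p = 0.0188), and Cartpt, a neuropeptide precursor, rose by 0.78 (adjusted p = 0.00805). The fall of Cck was mostly on slide 2 (−1.54 there and −0.23 on slide 1). Irx2, an α-cell transcription factor, rose by 1.01, so that of the 3 α-cell markers measured 1 rose and 1, Gcg, fell. Tph2, the neuronal tryptophan hydroxylase, changed by 0.46 and did not pass the test (adjusted p = 0.0762). Ins2 had levels of 15.53 and 15.37 at 72 hr, against 15.53 on both CTR arrays. Its probe was the brightest on 11 of 12 arrays, and quantile normalization gives the brightest probe the same value, so that these arrays say little on Ins2. Of 11 granins and prohormone enzymes 2 fell, Vgf by 0.90 (adjusted p = 0.00387) and Ptprn by 0.79 (adjusted p = 0.0223), the second mostly on slide 2 (−1.29 there and −0.29 on slide 1).

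Among 17 transcription factors of β-cell identity, 4 rose and 1 fell (median −0.02), where over all features 10.8% were called higher and 9.58% lower. Mafa, an activator of insulin genes, had levels of 7.59 and 6.22 at 72 hr, against 8.07 and 7.76 in CTR (−1.01 ± 0.29, adjusted p = 0.0296). The other probe of Mafa changed by −0.35. Pax4, a factor of islet development, was not above background in CTR and was at least 2.78-fold higher at 72 hr (adjusted p = 0.0132), with a change of 0.45 on slide 1 and 3.11 on slide 2. Myt1 and the corepressor Tle3 rose by 0.99 (adjusted p = 0.00261) and 0.90 (adjusted p = 0.0163). Pdx1 had levels of 11.53 and 11.57 at 72 hr, against 11.76 and 11.97 in CTR, and did not pass the test (adjusted p = 0.0754). Without CTR replicate 2 none of the 17 was called by limma.

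Of 12 genes of glucose sensing 2 fell and 0 rose. The share called in either direction is below the 20.4% of all features, and the share lower is above their 9.58%. Glp1r, the receptor of the incretin GLP-1, had levels of 8.27 and 7.28 at 72 hr, against 9.03 and 8.82 in CTR (−1.15 ± 0.21, adjusted p = 0.00392). Pfkfb2, which sets fructose 2,6-bisphosphate, fell by 0.76 (adjusted p = 0.0166). The glucose transporter Slc2a2 changed by −0.46 ± 0.17 and did not pass the test (adjusted p = 0.0735). Of 25 exocytosis genes 5 rose and 3 fell, where over all features 10.8% were called higher and 9.58% lower. Syt7, a calcium sensor of granule fusion, rose by 1.02 (adjusted p = 0.0026), and the fusion proteins Cplx2 and Stx3 by 0.60 and 0.59, while Syt13, an atypical synaptotagmin, fell by 0.93 (adjusted p = 0.00888).

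Of 19 p53 targets 10 rose and 0 fell (median 0.53), where over all features 10.8% were called higher. Trp53inp1, a p53-induced autophagy protein, had levels of 10.59 and 11.17 at 72 hr, against 8.60 and 8.70 in CTR (2.23 ± 0.23, adjusted p = 0.000707). Bbc3 (PUMA), a BH3-only death protein, had levels of 10.37 and 10.69 at 72 hr, against 8.62 and 9.11 in CTR (1.66 ± 0.22, adjusted p = 0.00135), although its other probes changed by 0.30 and 0.41. The inhibitors of cyclin-dependent kinases Cdkn1a (p21) and Cdkn1c (p57) rose by 1.25 ± 0.18 and 1.23 ± 0.23. Sesn2 is on this list and on that of the ATF4 regulators. Against TC, 4 of the 19 were called higher.

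Of 31 mitosis genes 7 fell and 1 rose (median −0.24), and of 39 genes of DNA replication 7 fell and 0 rose (median −0.06), where over all features 20.4% were called and 9.58% were lower. Cdk1, the mitotic kinase, had levels of 11.70 and 11.36 at 72 hr, against 12.45 and 12.03 in CTR (−0.71 ± 0.13, adjusted p = 0.00383). Cenpa, Spc24 and Cdc25c, of the kinetochore and of mitotic entry, fell by 0.59, 0.57 and 0.56. Pold2, a subunit of DNA polymerase δ, had levels of 10.27 and 10.32 at 72 hr, against 11.26 and 11.24 in CTR (−0.95 ± 0.16, adjusted p = 0.00322). Fen1, Tk1 and Lig1, of flap removal, thymidine salvage and ligation, fell by 0.64, 0.74 and 0.54. Other probes of Lig1 changed by −0.27 to −0.19. Without the 72 hr replicate 2, 1 mitosis gene and 3 replication genes were still called lower.

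In a list of circadian clock genes, added after values had been seen, 6 of 12 rose and 0 fell (median 0.82). Ciart, a repressor of the circadian clock, had levels of 10.69 and 11.33 at 72 hr, against 7.29 and 8.74 in CTR (3.0 ± 0.41, adjusted p = 0.00135), and its other probes changed by 2.94 and 3.03. The transcription factors Nr1d2, Dbp and Tef rose by 0.86, 0.83 and 0.82. Id1, an inhibitor of bHLH factors and a target of BMP signalling, had levels of 10.20 and 8.23 at 72 hr, against 11.48 and 11.00 in CTR (−2.02 ± 0.40, adjusted p = 0.00548). It was the 1 called gene of the 8 measured in the added list of Id proteins and BMP signalling.

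Of 18 immediate early genes 8 rose and 1 fell, where over all features 10.8% were called higher and 9.58% lower. Klf6 rose by 0.93 (adjusted p = 0.00831) and Nr4a2 fell by 0.87 (adjusted p = 0.00723). Of 20 interferon and antigen presentation genes 5 rose and 0 fell, with medians of 0.07 on slide 1 and 0.71 on slide 2. B2m, the light chain of MHC class I, had levels of 9.09 and 9.88 at 72 hr, against 8.42 and 8.07 in CTR (1.24 ± 0.22, adjusted p = 0.00391). TC was higher than CTR by 0.63, and against TC the change of B2m was 0.61 and did not pass the test (adjusted p = 0.0734). Against TC the list had a median of 0.13, with 4 higher and 1 lower, against a median of 0.36 with CTR as the control. Ifit3 and Usp18, both induced by interferon, rose by 1.03 and 0.95, and the peptide transporter Tap2 was not above background in CTR and at least 1.46-fold higher at 72 hr. Of 34 lysosomal genes 8 rose and 3 fell. Tpp1, a lysosomal peptidase, had levels of 9.66 and 10.17 at 72 hr, against 8.40 and 8.94 in CTR (1.24 ± 0.19, adjusted p = 0.00198), while the membrane protein Lamp2 rose by 0.58 (its other probes changed by −0.15 to 0.54) and the acid lipase Lipa fell by 0.68. Laptm4a, a lysosomal membrane protein, had levels of 9.90 and 10.75 at 72 hr, against 11.24 and 11.73 in CTR (−1.16 ± 0.15, adjusted p = 0.00116). Unlike the lists followed above, Laptm4a was already lower than CTR by −2.01 at 16 hr (adjusted p = 7.02e-05), −2.19 at 24 hr (adjusted p = 2.54e-05) and −1.94 at 48 hr (adjusted p = 0.000107). Of 26 autophagy genes 2 rose, Gabarapl1 by 1.16 (adjusted p = 0.0022) and Sqstm1 by 0.76 (adjusted p = 0.0221), a share below the 10.8% of all features called higher.

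Of 26 sterol and fatty acid enzymes 6 fell and 0 rose, with medians of −0.12 on slide 1 and −0.70 on slide 2. Ebp, a sterol isomerase, and Elovl6, a fatty acid elongase, fell by 0.48 and 0.81. Mvk and Mvd of the mevalonate pathway changed by −1.31 ± 0.31 (adjusted p = 0.012) and −1.09 ± 0.28 (adjusted p = 0.019), and both were lower on both slides, although Mvk was above background on 1 of the 2 arrays at 72 hr. Without the 72 hr replicate 1, 16 members were called lower, and without the 72 hr replicate 2 or CTR replicate 2, 0 members were. No promoter of 20 members held the SRE motif TCACNCCAC in the window, against 1.44% of all promoters. At so low a share, 20 promoters are too few to show a lack of the motif.

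Of 24 glycolysis and hypoxia genes 4 rose and 0 fell. The share called in either direction is below the 20.4% of all features, and the share higher is above their 10.8%. Their median was 0.62 on slide 1 and −0.54 on slide 2, and −0.05 in the fit. Ldha, the lactate dehydrogenase that β cells normally keep low, had levels of 10.81 and 8.42 at 72 hr, against 6.35 and 9.88 in CTR, and did not pass the test (1.5 ± 0.99, adjusted p = 0.3). The CTR arrays of Ldha differed from each other by more than the group means did, and the groups overlapped. Across all features, 7 changed by 1 or more in opposite directions on the slides, of which 6 were named genes (Ldha, Ak4, Mgarp, Gm5148, Sval2 and Fam162a), and all were higher on slide 1. Ndrg1, Eno2, Vegfa and Egln1 rose on both slides, Ndrg1 by 1.27 ± 0.17 (adjusted p = 0.00133).

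**Figure D5:**
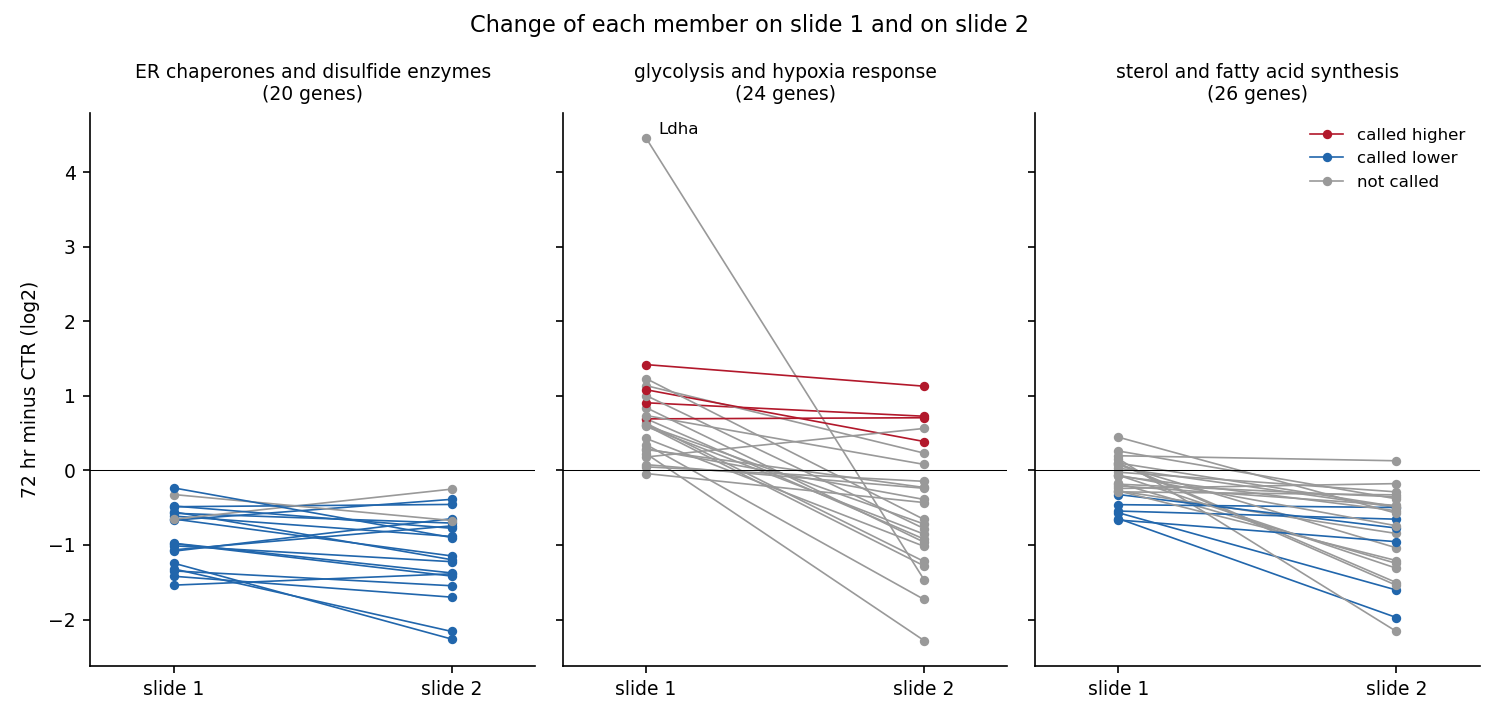
Change at 72 hr against CTR (vertical, log2) of each member of 3 lists on slide 1 and slide 2, with a line joining the values of a gene. ER chaperones were below 0 on both slides, whereas most glycolysis and hypoxia genes crossed from above 0 to below it and sterol genes were lower on slide 2.

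The microRNA pathway itself was measured to see whether its parts changed with miR-184. Ago2, the slicing Argonaute and a reported target of miR-184, had levels of 9.61 and 9.97 at 72 hr, against 9.52 and 9.71 in CTR, and did not pass the test (0.18 ± 0.18, adjusted p = 0.518). Its other probes changed by −0.10 and 0.21. Of 9 measured reported targets of miR-184, 1 rose (Inppl1 by 0.73, adjusted p = 0.0385) and 0 fell, where over all features 10.8% were called higher. Of 22 genes of microRNA processing and silencing, 2 fell, Dicer1 by 0.50 (adjusted p = 0.0229) and Dcp2 by 0.68 (adjusted p = 0.0357), a share close to the 9.58% of all features called lower. Other probes of Dicer1 changed by −0.57 and −0.07. Cadm1, Gphn and Elavl4, named for miR-375, had changes of 0.18, 0.33 and −0.15 and did not pass the test. The other probe of Elavl4 changed in the opposite direction, by 0.42. Slc25a22, Ago1 and Rasd1 were below the detection filter. Of the genes used as loading references, Actb and Tubg1 fell by 0.53 and 0.44, and Tbp changed by 0.17 (adjusted p = 0.391). Other probes of Actb changed by −0.86 to 1.35.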

How the data were processed

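Transcripts of MIN6 cells were profiled with 12 Illumina arrays (MouseWG-6 v2), 2 per group. The authors deposited signal intensities that were not normalized, each with its detection p-value. They also deposited intensities after quantile normalization, for which the submitters' notes name lumi without a version, and which were used as an alternative on the log2 scale. Gene names came from the platform annotation, in which 34885 probes had 1 symbol, 18 had several and 10378 were not listed.

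Intensities were background corrected and quantile normalized by neqc (limma 3.58.1, R 4.3.3, offset 16), probes were kept where 2 or more of the 12 arrays had a detection p under 0.01 (17556), and the brightest probe of a gene was used. This gave 9493 named genes and 2508 unnamed probes. A linear model of the 6 groups with the slide as a block was fitted over all arrays with 5 residual degrees of freedom, a variance trend and Benjamini-Hochberg adjustment over 12001 features. The pairing by slide comes from the labels, and deviations of the 72 hr and CTR arrays of 1 slide from their group means correlated at 0.235 (0.207 to 0.628 over 15 pairs of groups). A group with no array above background gives a lower bound of the fold, from the lowest detected signal of each array.

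The genes named are the 15 highest and 15 lowest called genes, up to 4 called genes per list with the smallest p, and genes the paper names. Of the genes nearest to differing between the controls, Cxcl10 and Junb are named. Others (Ddit3, Chac1, Cebpb, Ppp1r15a, Fgf21, Xbp1, Creb3l2, Atf4, Phgdh, Psat1, Asns, Slc7a3, Slc3a2, Hspa5, Hsp90b1, Hyou1, Creld2, Pdia4, Copg1, Pan2 and Ldha, and those of opposite direction on the slides) were chosen after their values were seen. The genes and lists described were chosen with earlier results of these data known, and 3 lists (circadian clock, Id proteins, N-glycan precursors) were added after values were seen. Lists are described by counts and medians, with no set test. The procedure was tested on simulated data. Alternatives were other fits, background corrections, normalizations and filters, the methods' test, TC in place of CTR, and leaving out each array. Figures were drawn with matplotlib 3.10.9.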

Additional observations from a re-analysis of the deposited data

Results flagged for a closer look

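Cxcl10, which encodes an interferon-induced chemokine, was the 1 feature whose change at 72 hr differed by the control used, by the test of TC against CTR. Cxcl10 was above background on both TC arrays and on none at 72 hr or in CTR, so that only bounds hold. It was at least 1.90-fold higher in TC than in CTR (limma, adjusted p = 0.0455, with a fitted difference of 2.13 that is no measured size). It was at least 1.92-fold lower at 72 hr than in TC (adjusted p = 0.00358). Its levels were 5.95 and 5.94 at 16 hr, 6.26 and 5.59 at 24 hr and 5.12 and 5.36 at 48 hr. The call was lost in each fit that left out a TC or CTR array.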

How the results depend on the processing

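The count of 2449 calls at 72 hr against CTR was 853 with no slide in the fit (no replicate block), all of them among the 2449, and 1204 with only the 4 arrays compared. It ranged from 297 to 2992 over fits that left out 1 array each, and was lowest without CTR replicate 2. The methods' t-test called 1476 features at its unadjusted threshold and 0 after Benjamini-Hochberg adjustment. The count stayed within 1.5 times of 2449 under the other alternatives, between 1948 with no filter on detection and 3482 with every probe on its own, and 2305 against TC. Each setting other than every probe on its own moved the median of all features by less than 0.01.

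Between TC and CTR the count of 1 became 0 with no slide block, with an offset of 50, with detection on all arrays and in each fit without an array (0 to 0), and 20 with only the arrays compared. The methods' t-test gave 338 unadjusted and 0 adjusted.

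Of the 138 called genes named, 138 kept their call with the deposited values, 133 under median scaling, 89 without the slide block, 125 against TC and 54 without CTR replicate 2. Junb reversed against TC (−0.20). Among genes that did not pass the test, Ins2 was 0.23 under median scaling and Cxcl10 was fitted at −1.60 against TC, from values below background at 72 hr. Over fits without 1 array, Atf4 ranged from −0.0051 to 0.52, Ins2 from −0.16 to 0, Ldha from −0.42 to 3.41, Ago2 from −0.021 to 0.37 and Cadm1 from −0.027 to 0.38. The medians of the lists ranged from −0.030 to 0.29 for cyclins and inhibitors, −0.016 to 0.18 for miR-184 targets and −0.50 to 0.076 for Id proteins. The causes of these shifts were not tested. The 2 arrays per group limit the precision, and probes not above background in a group give only bounds.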

Other observations

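Of 50 cytosolic ribosomal proteins 1 rose (Rps15a by 0.91) and 3 fell (Rplp2, Rplp0 and Rpl4, by 0.47, 0.59 and 0.79), with a median of 0.00 at 72 hr against CTR. Their shares are below the 10.8% of all features called higher and the 9.58% called lower. Of 69 mitochondrial ribosomal proteins 9 fell and 1 rose, and of 34 subunits of complex I 5 fell and 0 rose. Called in either direction, both shares are below the 20.4% of all features, whereas the shares lower are above their 9.58%. Mrpl14, of the large mitochondrial ribosomal subunit, fell by 1.32 (adjusted p = 0.0115), and Ndufb9 and Ndufa8 of complex I fell by 0.79 and 0.71. Of 26 proteasome subunits 7 fell and 0 rose, with a median of −0.26, where over all features 9.58% were called lower. Psmb7 (−0.49, adjusted p = 0.00834) and Psmc5 (−0.46, adjusted p = 0.0225) were among those that fell. Of 21 antioxidant genes of the NRF2 response 2 rose, Slc7a11 and Gpx4, and 3 fell, among them Srxn1 (−0.81) and Sod1 (−0.51). Over all features 10.8% were called higher and 9.58% lower, and the share of NRF2 genes called higher is close to the first.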
